A study of Mus musculus with 4 samples.

Results

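The growth-control genes Trp53, Cdkn2a, Cdkn2b, Cdkn1a, Mdm2, Smad4 and Myc were followed through single-cell RNA libraries of mouse pancreatic tumours. They were chosen by symbol, and all 7 were among the 32285 genes of the count tables. The tumours grew in the pancreas of untreated C57BL/6J mice from KPC-4545 or KPC-3403 cells and were taken on day 13. KPC is a mouse model of pancreatic ductal adenocarcinoma whose tumours carry a mutant Trp53; the labels name the lines and give no alleles, no animal numbers and no ages. For each line there was a whole library, from the suspension before sorting, and an enriched library, from cells that a sort found without EPCAM, CD45, TER119 or CD31 at the surface, so there were 4 libraries and 1 of each kind. The sort removes leukocytes, endothelial cells, erythroid cells and EPCAM-positive epithelium, so tumour cells in an enriched library are those that escaped the EPCAM gate. Levels are given as unique molecular identifiers (UMIs, 1 per captured transcript) of a gene per 10000 UMIs of the same cells, with an exact Poisson 95% interval that covers counting error only.

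The 7 genes form the brakes that pancreatic cancers most often lose, and the factors around them. Cdkn2a encodes 2 unrelated proteins from alternative first exons: p16Ink4a, which blocks the kinases Cdk4 and Cdk6, and p19Arf, which holds back Mdm2 and so keeps p53 stable. Cdkn2b, its neighbour, encodes p15Ink4b, another inhibitor of Cdk4 and Cdk6. The p53 protein, from Trp53, switches on Cdkn1a (p21, an inhibitor of cyclin-dependent kinases) and Mdm2, the ubiquitin ligase that degrades p53 in return. Smad4 is the shared partner of the receptor-activated Smads in TGF-beta and BMP signalling, and Myc is a transcription factor that drives growth. The counts were made per gene, so the Ink4a and Arf transcripts of Cdkn2a were counted together, and mutant and normal Trp53 transcripts likewise.

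In mm10 Cdkn2a lies at chr4:89274471-89294653 and Cdkn2b at chr4:89306299-89311039, both on the minus strand. Mdm2 lies at chr10:117688875-117710758 on the minus strand, Trp53 at chr11:69580359-69591873, Myc at chr15:61985391-61990374 and Cdkn1a at chr17:29090976-29100727, the last 3 on the plus strand. No other gene of the count tables overlapped any of the 7.

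Cdkn2a and Cdkn2b shared the tumour-high pattern described here, so the stretches just upstream of their starts are shown, from the RefSeq promoter table (GRCm38.p6, minus strand, printed 5′ to 3′ in gene direction, ending where an annotated exon or the RefSeq start begins). Capitals mark exact matches on either strand to 4 kinds of motif. The GC box was searched as GGGCGG. The E box that Myc and Max bind was searched as CACGTG. For the TATA box the letters were TATAAA. An E2F site was any of the words TTTCGCGC, TTTGGCGC, TTTCCCGC and TTTGCCGC.
Cdkn2b, chr4:89311040-89311282: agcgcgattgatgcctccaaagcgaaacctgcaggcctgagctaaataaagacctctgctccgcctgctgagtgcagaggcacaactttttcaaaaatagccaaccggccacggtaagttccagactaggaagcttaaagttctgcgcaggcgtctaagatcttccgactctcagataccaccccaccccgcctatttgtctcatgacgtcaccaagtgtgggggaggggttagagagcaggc
Cdkn2a upstream (Arf) start, chr4:89294654-89294869: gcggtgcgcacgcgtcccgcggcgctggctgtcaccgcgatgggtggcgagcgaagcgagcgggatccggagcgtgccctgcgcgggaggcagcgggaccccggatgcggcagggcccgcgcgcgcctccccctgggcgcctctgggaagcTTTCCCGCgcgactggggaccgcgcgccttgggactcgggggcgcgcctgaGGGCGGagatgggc
Cdkn2a downstream (Ink4a) start, chr4:89282193-89282442: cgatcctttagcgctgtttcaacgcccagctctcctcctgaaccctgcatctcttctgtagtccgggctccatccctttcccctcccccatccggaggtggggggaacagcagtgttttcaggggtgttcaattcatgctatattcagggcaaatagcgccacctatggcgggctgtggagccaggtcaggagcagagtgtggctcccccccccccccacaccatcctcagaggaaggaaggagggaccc
The Arf window held 1 E2F match and 1 GC box, which do not overlap, and was 78.7% G or C. The Ink4a window was 60% G or C, the Cdkn2b window 53.5%, and neither held any of these letters. Of 32851 promoter windows of 250 bases, 1.86% held an E2F match and 32.7% a GC box, and the median window was 52.4% G or C.

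The libraries held 5746733 to 51450719 UMIs in all. After filtering there were 5612 cells, with 527 to 2470 per library and a median of 10854.5 UMIs per cell. The libraries shared cell barcodes: 130 were shared by the enriched KPC-4545 and whole KPC-3403 libraries, against 6 to 8 for the other pairs of libraries. In enriched KPC-4545, 128 cell barcodes were taken as copies of whole KPC-3403 barcodes, with a median of 2.55% of the UMIs these held there. When copies were kept, 86 of the 93 tumour-like cells of enriched KPC-4545 were copies. They held 4.60 Xist UMIs per 10000, while the other 7 cells held none. Xist was at 5.67 and 6.40 per 10000 in tumour-like cells of enriched and whole KPC-3403, against 0.0987 in those of whole KPC-4545. Copies in all libraries were therefore left out.

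Cell classes were named from marker genes, with the 7 genes and all gene lists below kept out of the clustering. Tumour-like cells, in 3 clusters, numbered 6 and 42 in enriched and whole KPC-4545, and 660 and 262 in enriched and whole KPC-3403. At least 9 of the 10 epithelial markers were each found in 10% or more of the cells in the libraries with 42 or more. Collagen-poor cells are 5 clusters that took no class name and had under 10% of the fibroblast-like collagen level. They made up 95.3% of enriched KPC-4545 cells (1444 cells), with 35 cells in whole KPC-4545 and 51 and 13 in enriched and whole KPC-3403. In enriched KPC-4545 they had 7 of the 10 epithelial markers in 10% of cells, with Krt8 at 5.96 per 10000, but only 3 Epcam UMIs and 3 Xist UMIs in 29618920. The 52 fibroblast-like cells of the same library had Krt8 at 0.0597 and Xist at 6.33 per 10000. Fibroblast-like cells numbered 52, 10, 1545 and 56, and immune-like cells 5, 410, 26 and 624, in the same order of libraries. A class was summed in a library only with 20 or more cells, except that the 6 tumour-like cells of enriched KPC-4545 enter 1 ratio with the collagen-poor cells of that library.

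Cdkn2a, the Ink4a and Arf locus, separated the tumour and collagen-poor cells from the host cells in every library where both could be measured. In collagen-poor cells it stood at 12.9 (12.8 to 13.0) UMIs per 10000 in enriched KPC-4545, 8.59 (7.84 to 9.39) in whole KPC-4545 and 16.3 (15.6 to 17) in enriched KPC-3403. In tumour-like cells it stood at 6.94 (6.30 to 7.64) in whole KPC-4545, 7.98 (7.81 to 8.14) in enriched KPC-3403 and 6.11 (5.89 to 6.35) in whole KPC-3403. In fibroblast-like cells it was 0.139, 0.258 and 0.105 in enriched KPC-4545 cells and in enriched and whole KPC-3403 cells. The tumour and host ranges lay far apart, and the lowest tumour-like level exceeded the highest immune-like level, 0.150 in enriched KPC-3403. Free RNA, read from barcodes with at most 100 UMIs, held 6.13 and 2.24 Cdkn2a UMIs per 10000 in enriched and whole KPC-4545, and 1.34 and 2.50 in enriched and whole KPC-3403. Every fibroblast-like and immune-like level was below the free RNA of its own library, so these low levels are not read as expression. The part of free RNA in the UMIs of a cell was not estimated. The comparison therefore does not show that host cells lack Cdkn2a RNA.

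The share of cells with at least 1 Cdkn2a UMI also set tumour and collagen-poor cells apart from host cells. It was 82.2% (80.1 to 84.1, exact Clopper-Pearson 95% interval) of collagen-poor cells of enriched KPC-4545 (median 11320 UMIs per cell), and 86.5% of tumour-like cells of enriched KPC-3403 (median 15844.5), against 20.1% of fibroblast-like cells of enriched KPC-3403 (median 16418) and 2.40% of immune-like cells of whole KPC-3403 (median 3179). After thinning each cell to 2000 UMIs the shares were 71.8% of 1141 collagen-poor cells, 62.3% of 610 tumour-like cells, 4.21% of 1497 fibroblast-like cells and 0.883% of 453 immune-like cells. Thinning left out 303, 50, 48 and 171 shallower cells of these groups.

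Cdkn2b followed Cdkn2a at lower counts. In collagen-poor cells it stood at 1.58 (1.54 to 1.63) per 10000 in enriched KPC-4545, 0.779 (0.566 to 1.05) in whole KPC-4545 and 1.55 (1.34 to 1.78) in enriched KPC-3403. In tumour-like cells it stood at 0.362 (0.227 to 0.548) in whole KPC-4545, 0.900 in enriched KPC-3403 and 0.637 in whole KPC-3403. Fibroblast-like cells had 0.115 to 0.159, below the free RNA of their libraries (0.306 to 0.671), with enriched KPC-3403 at 0.245 when copies were kept, and all immune-like cells together had 6 UMIs. In the whole libraries the immune-like level of Cdkn2b was at most 0.0181 per 10000. Over 25 sums of 1 class in 1 library, Cdkn2a and Cdkn2b had a Pearson r of 0.853 on log2(CPM + 1), the highest of the 21 pairs of the 7 genes. These sums share libraries and differ in depth, so r is a description.

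Cdkn1a, the p53 target that encodes p21, ran the other way. Neutrophil-like cells had 15 (12 to 18.5) per 10000 in whole KPC-4545, 8.10 (5.95 to 10.8) in enriched KPC-3403 and 11.3 (10.0 to 12.7) in whole KPC-3403. Mixed immune cells, a cluster led by myeloid granule genes such as Ngp and Camp together with Lyz2, had 3.16 in whole KPC-4545 and 4.25 in whole KPC-3403. T-like, NK-like and B or plasma-like cells had 0.0388 to 0.740. Collagen-poor cells had 0.181 in enriched KPC-4545, 0.213 in whole KPC-4545 and 0.182 in enriched KPC-3403, and tumour-like cells had 0.543, 0.894 and 0.504 in whole KPC-4545 and then in enriched and whole KPC-3403. Fibroblast-like cells had 0.756, 1.49 and 1.83 in enriched KPC-4545 cells and in enriched and whole KPC-3403 cells, above the tumour and collagen-poor cells of the same library in each case. Free RNA held 0.474 and 0.585 Cdkn1a UMIs per 10000 in enriched and whole KPC-4545 and 1.41 and 1.10 in enriched and whole KPC-3403, so every tumour-like and collagen-poor level lay below it and the fibroblast-like levels lay above it. The collagen-poor level of enriched KPC-3403 was 0.354 to 0.379 when list genes were kept for clustering, copies were kept or cells were held to 10% mitochondrial UMIs. The neutrophil-like level depended on which cells were kept: when cells needed 1000 UMIs and 500 genes it was 6.16 in whole KPC-4545, 8.34 in enriched KPC-3403 and 5.27 in whole KPC-3403. At that setting fibroblast-like cells had 0.729 to 1.84.

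Mdm2, the p53 ligase, was highest in the neutrophil-like cells of the whole libraries, at 2.79 (1.59 to 4.53) per 10000 in whole KPC-4545 and 1.40 (0.977 to 1.95) in whole KPC-3403, while the 22 neutrophil-like cells of enriched KPC-3403 gave only 3 Mdm2 UMIs. When cells needed 1000 UMIs and 500 genes, the levels in the whole libraries were 1.17 in KPC-4545 and 0.848 in KPC-3403. Tumour-like cells had 0.263, 0.373 and 0.242 in whole KPC-4545 and then in enriched and whole KPC-3403, and collagen-poor cells 0.394, 0.319 and 0.266 in enriched KPC-4545, whole KPC-4545 and enriched KPC-3403. Free RNA held 0.342 and 0.313 Mdm2 UMIs per 10000 in enriched and whole KPC-4545 and 0.358 and 0.371 in enriched and whole KPC-3403. The tumour-like levels of both whole libraries and the collagen-poor level of enriched KPC-3403 lay below it. The other tumour-like and collagen-poor levels lay slightly above it. Fibroblast-like cells had 0.378, 0.535 and 0.996 in enriched KPC-4545 cells and in enriched and whole KPC-3403 cells, and the last of these was 0.423 when cells were held to 10% mitochondrial UMIs and 0.563 with copies kept. The level in enriched KPC-4545 was 0.223 at 10% mitochondrial UMIs, and that in enriched KPC-3403 was 0.305 with copies kept. Over the 25 sums Cdkn1a and Mdm2 had a Pearson r of 0.727.

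Trp53 UMIs were found in every class. Collagen-poor cells had 1.14 (1.10 to 1.18) per 10000 in enriched KPC-4545, 0.478 (0.315 to 0.696) in whole KPC-4545 and 1.22 (1.04 to 1.43) in enriched KPC-3403. Tumour-like cells had 0.724, 0.920 and 0.874 in whole KPC-4545 and then in enriched and whole KPC-3403. Fibroblast-like cells had 0.557, 0.598 and 0.440 in enriched KPC-4545 cells and in enriched and whole KPC-3403 cells, immune-like cells 0.431 and 0.590 in the unsorted KPC-4545 and KPC-3403 libraries, and neutrophil-like cells 0.174 to 0.345. Free RNA held 0.789 and 0.512 in enriched and whole KPC-4545 and 0.814 and 0.782 in enriched and whole KPC-3403. Tumour-like levels and those of collagen-poor cells of both enriched libraries lay above it. The fibroblast-like, immune-like, neutrophil-like and whole KPC-4545 collagen-poor levels lay below it. The part of free RNA in the UMIs of a cell was not estimated, so whether these lower levels are expression was not tested. The tumour and fibroblast ranges did not overlap, but the whole KPC-4545 collagen-poor cells lay among the host cells. Erythroid-like cells of enriched KPC-3403 had the highest level of any class, 1.91 (1.65 to 2.20), but those of whole KPC-4545 and whole KPC-3403 had 0.0668 and 0.479.

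Myc was low in neutrophil-like and mixed immune cells and higher in several other classes. B or plasma-like cells had 1.20 and 0.737 per 10000 in whole KPC-4545 and whole KPC-3403, while no Myc UMI was found in 23 and 117 neutrophil-like cells of these libraries, which allows levels of up to 0.523 and 0.120 by a floor of 3 UMIs (the exact Poisson upper limits are 0.643 and 0.148). Mesothelial-like cells of enriched KPC-3403 had 1.13. Myc stood at 1.05, 0.443 and 1.07 in collagen-poor cells of enriched KPC-4545, whole KPC-4545 and enriched KPC-3403, and at 0.576, 0.957 and 0.535 in tumour-like cells of whole KPC-4545 and of enriched and whole KPC-3403. In fibroblast-like cells it was 0.816, 1.00 and 0.524 in enriched KPC-4545 cells and in enriched and whole KPC-3403 cells, so that in KPC-3403 the enriched cells exceeded the whole cells in both the tumour-like and the fibroblast-like class. Smad4 counts were low in both lines: tumour-like cells had 0.148, 0.282 and 0.294 in whole KPC-4545 and then in enriched and whole KPC-3403, collagen-poor cells 0.167 to 0.248, and fibroblast-like cells 0.247 to 0.304. The tumour-like level of whole KPC-4545 lay below its free RNA (0.230), as did the collagen-poor level of enriched KPC-4545, 0.167, below 0.250.

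**Figure D1:**
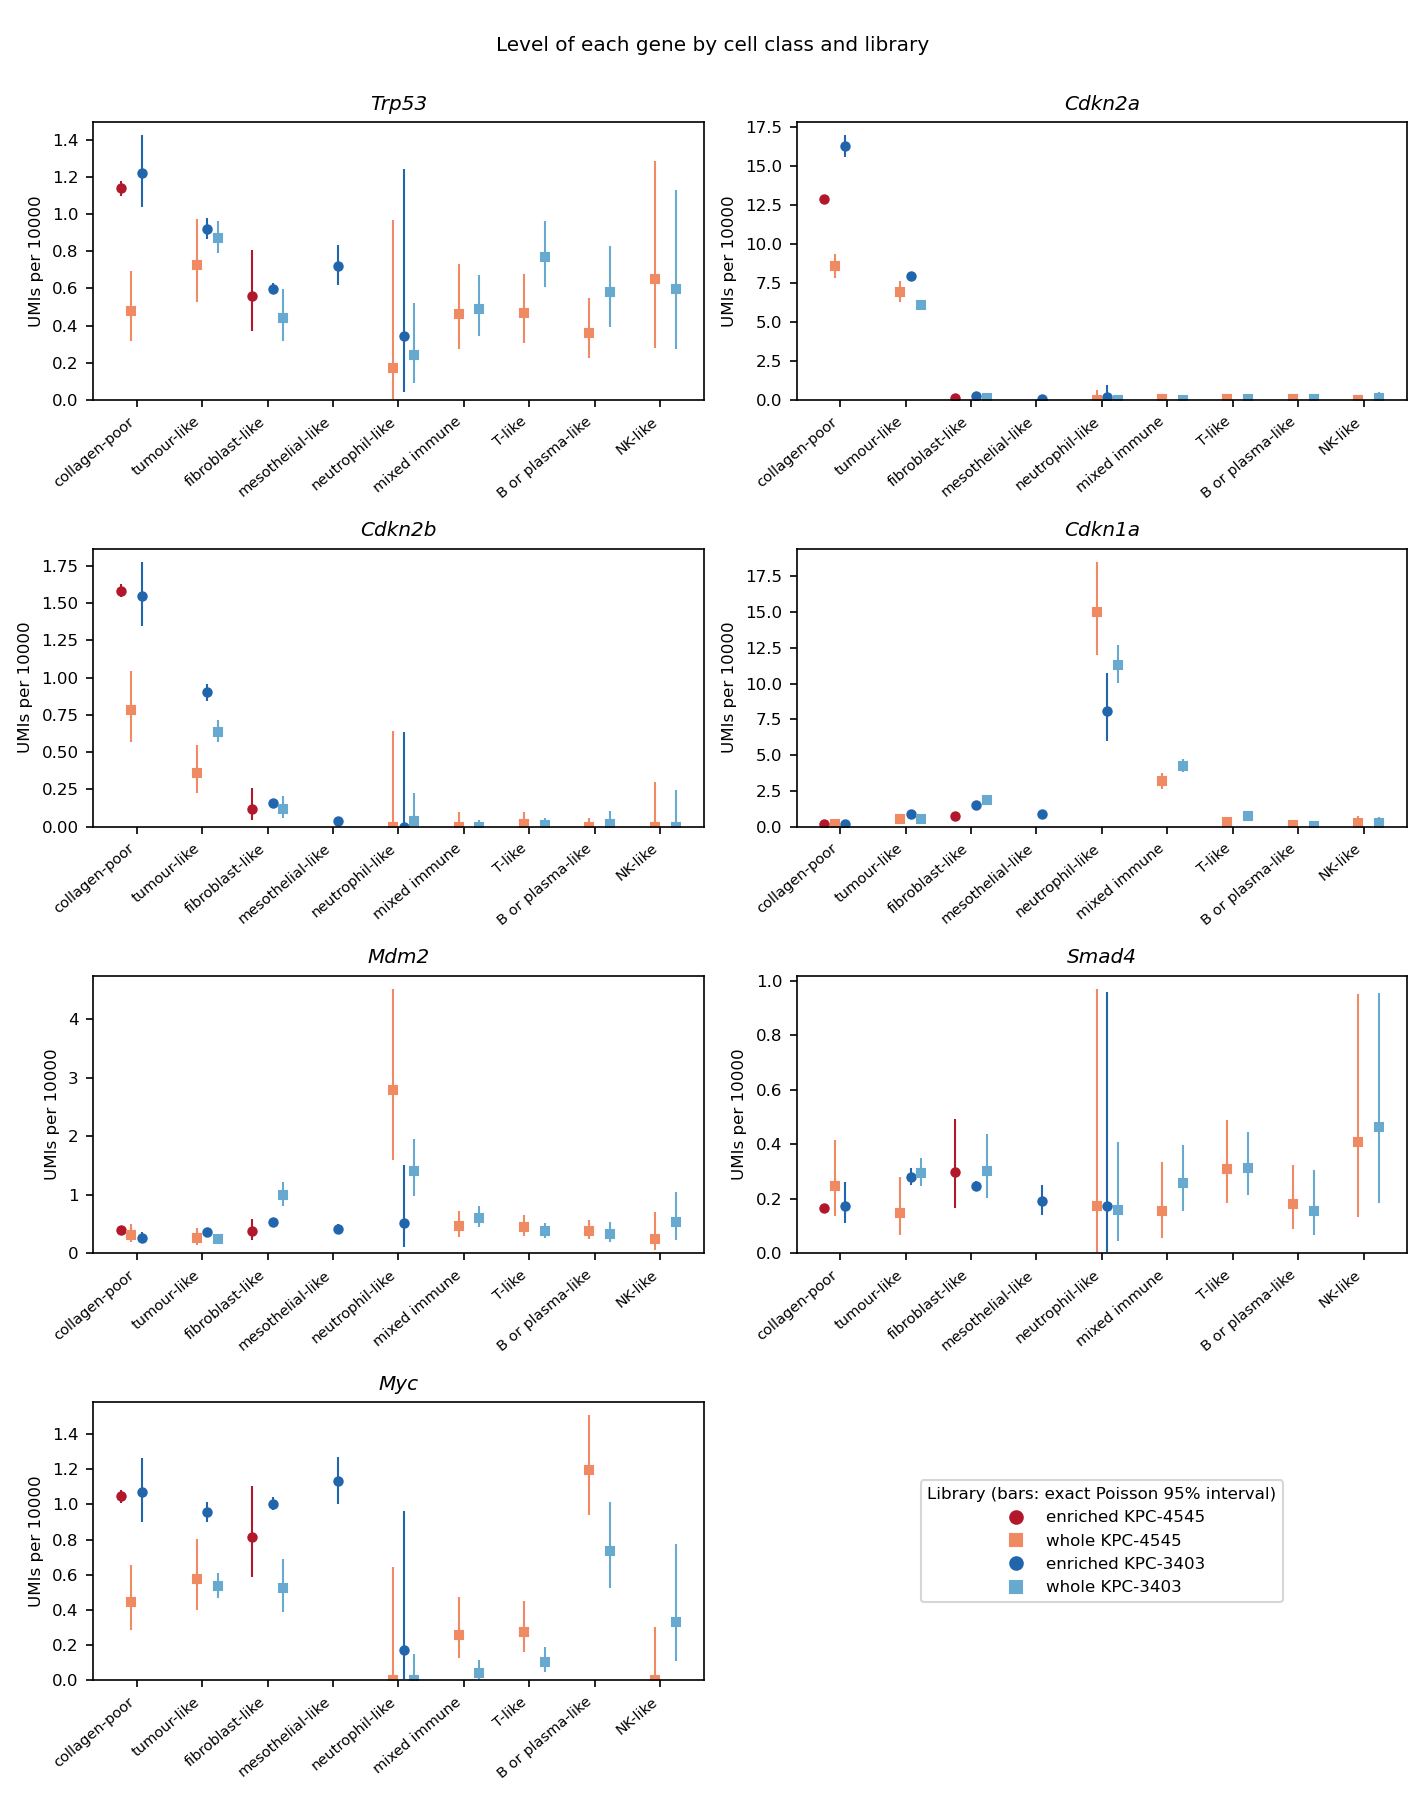
Each panel shows 1 gene, with UMIs per 10000 (vertical axis, from 0, a scale of its own) for each cell class (horizontal axis) in each library with at least 20 cells of it; points are sums over cells and bars exact Poisson 95% intervals. Cdkn2a and Cdkn2b were high in collagen-poor and tumour-like cells, Cdkn1a and Mdm2 in neutrophil-like cells.

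The first comparison asked which of the 7 genes distinguish tumour cells from the fibroblasts around them. Tumour-like cells had higher Cdkn2a, Cdkn2b and Trp53 and lower Cdkn1a and Mdm2 than fibroblast-like cells of the same KPC-3403 libraries, and Smad4 and Myc did not pass. With edgeR's quasi-likelihood test on summed counts and the library as a block (2 libraries, 1 residual degree of freedom), Cdkn2a rose by a log2 fold change of 5.23 ± 0.35 (SE; Benjamini-Hochberg adjusted p = 8.49e-09). Cdkn2b rose by 2.42 ± 0.28 (adjusted p = 1.63e-06) and Trp53 by 0.74 ± 0.27 (adjusted p = 0.0369). Cdkn1a fell by 1.32 ± 0.29 (adjusted p = 0.00194) and Mdm2 fell by 1.26 ± 0.34 (adjusted p = 0.0149). Of all 12793 genes tested, 38.2% passed (17.7% higher, 20.6% lower), and 5 of the 7 did. Both libraries gave the same direction for all 5. The Trp53 call was lost in 5 of 10 alternatives (adjusted p of 0.0550 to 0.208, the highest with DESeq2) and the Mdm2 call in 5 of 10 (adjusted p of 0.0671 to 0.318, the highest with barcode copies kept), while Cdkn2a, Cdkn2b and Cdkn1a passed in all 10. The Mdm2 change was -0.72 when cells were held to 10% mitochondrial UMIs and -0.46 with copies kept. Nothing in the labels says that libraries came from separate animals, so these p-values do not measure spread between animals. With so few residual degrees of freedom, they rest in large part on variance that edgeR shares over all genes tested. The spread of each gene between libraries, which may be technical, enters only in part. The same limit holds for the other edgeR tests here.

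The second comparison set tumour-like cells against immune-like cells, and 3 of the 7 genes passed. Tumour-like cells of 3 libraries (whole KPC-4545, enriched KPC-3403, whole KPC-3403; 2 residual degrees of freedom) had higher Cdkn2a, by 6.62 ± 0.64 (SE; log2; edgeR adjusted p = 2.94e-23), and higher Cdkn2b, by 5.23 ± 0.65 (adjusted p = 1.26e-14), than immune-like cells of the same libraries. Cdkn1a fell by 2.26 ± 0.45 (adjusted p = 3.64e-06). Mdm2 at -0.99 ± 0.43 (adjusted p = 0.0616), Myc at 0.88 ± 0.45 (adjusted p = 0.122), Trp53 at 0.71 ± 0.45 (adjusted p = 0.226) and Smad4 at -0.16 ± 0.46 (adjusted p = 0.831) did not pass. Of 10130 genes 34.3% passed (19.7% higher, 14.6% lower), and 3 of the 7 did. The immune-like sums held 1, 0 and 5 Cdkn2b UMIs in whole KPC-4545 and then in enriched and whole KPC-3403, so its fold rests on few counts. In the whole libraries Cdkn2a was 138-fold (71.9 to 304, exact 95% interval of the ratio) higher in tumour-like than in immune-like cells for KPC-4545 and 99.3-fold (61.9 to 171) for KPC-3403. The mix of immune cells differed between libraries: the 26 immune-like cells of enriched KPC-3403 held 22 neutrophil-like cells and 7.03 Cdkn1a UMIs per 10000, against 1.35 in whole KPC-4545 and 2.62 in whole KPC-3403. Mdm2 passed without the enriched KPC-3403 library, at -1.17 (adjusted p = 0.00596), and in 4 other alternatives (adjusted p of 0.0264 to 0.0389), and Myc passed with RLE size factors, at 0.98 (adjusted p = 0.0478).

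The comparison of the lines asked whether KPC-4545 and KPC-3403 tumour cells carry different levels of these genes. None of the 7 passed by edgeR with the filter on low counts. The enriched KPC-4545 library had only 6 named tumour-like cells, so the collagen-poor KPC-4545 cells were counted as tumour-like in this test (4 libraries, preparation as a term, 1 residual degree of freedom). KPC-4545 over KPC-3403 was -1.56 ± 0.67 (SE; log2; edgeR adjusted p = 0.372) for Cdkn1a, -0.84 ± 0.28 (adjusted p = 0.233) for Smad4 and 0.36 ± 0.23 (adjusted p = 0.467) for Cdkn2a. Trp53 was at -0.26, Cdkn2b at 0.18, Mdm2 at 0.00 and Myc at -0.12, with adjusted p of 0.638, 0.772, 0.998 and 0.786. Smad4 alone had an unadjusted p under 0.05 (0.0286), and DESeq2 called 0 of the 7. Of 12167 genes 0.567% passed (0.362% higher, 0.205% lower). Cdkn1a passed without the filter on low counts, at -1.57 (adjusted p = 8.11e-05). Collagen-poor cells had 0.181 and 0.213 Cdkn1a UMIs per 10000 in enriched and whole KPC-4545 and 0.182 in enriched KPC-3403. They were counted as tumour-like for KPC-4545 alone, so line and cell class cannot be told apart in this test. The direction for Cdkn2a and Cdkn2b turned when only named tumour-like clusters entered (whole KPC-4545 against both KPC-3403 libraries), to -0.11 and -1.18, with neither passing; with 3 libraries the preparation term was also dropped, and the 2 changes cannot be told apart. Between the named tumour-like cells of the whole libraries, with 1 library a line and no replicate check, Cdkn2b was 0.568-fold (0.350 to 0.877), Smad4 0.504-fold (0.225 to 0.987) and Cdkn2a 1.14-fold (1.02 to 1.26) in KPC-4545 relative to KPC-3403. The Cdkn1a ratio of these cells was 1.08 (0.724 to 1.56). No member was past 2-fold there, against 16% of 7853 genes (9.74% higher, 6.21% lower).

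**Figure D2:**
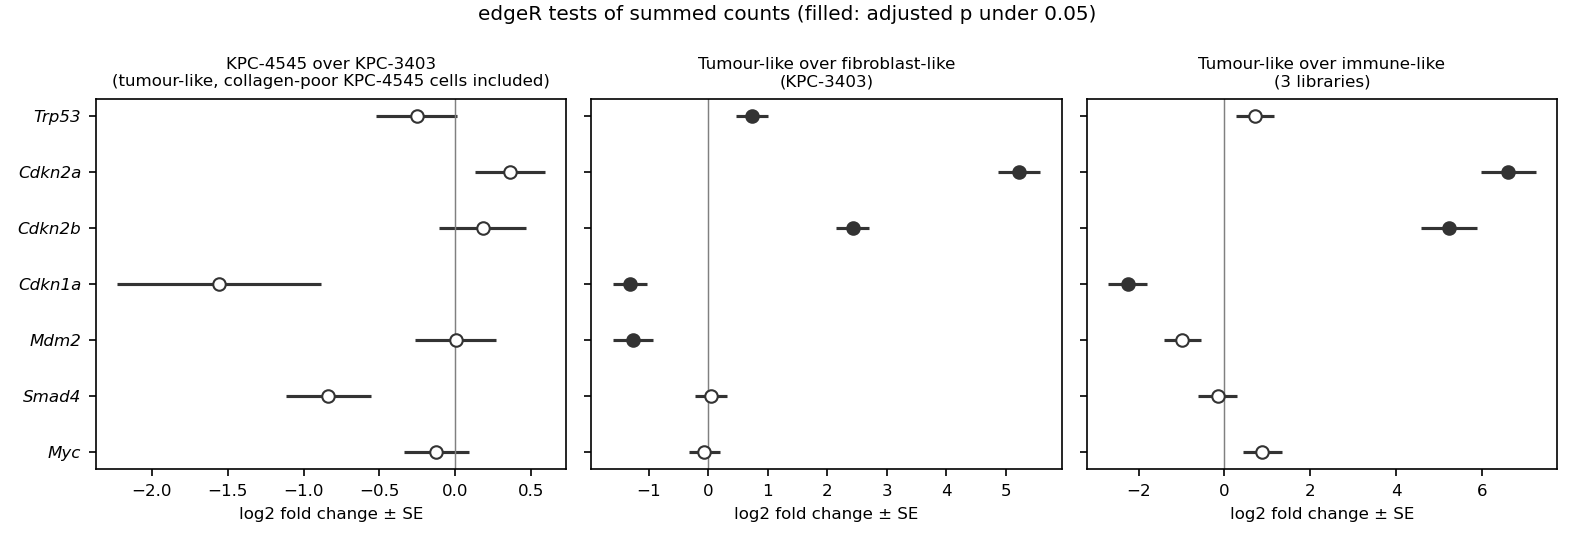
Log2 fold change ± SE (horizontal axis) from edgeR for each gene (rows) in the 3 tests, with filled points for adjusted p under 0.05. Cdkn2a and Cdkn2b lay to the right in both comparisons with host cells, and no point of the line comparison was filled.

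The collagen-poor cells of enriched KPC-4545 were then set against named classes, 1 library against 1, with ratios and exact counting intervals and no test. Against the fibroblast-like cells of the same library they had 92.5-fold (44.9 to 230) the Cdkn2a level, 13.3-fold (6.09 to 36.1) the Cdkn2b level and 2.04-fold (1.41 to 3.08) the Trp53 level, and 0.240-fold (0.172 to 0.342) the Cdkn1a level. Thus 3 of the 7 were past 2-fold higher and 1 lower, where 36.8% of 8463 genes were past it (17.2% higher, 19.6% lower). Against the 6 tumour-like cells of the same library, where 31.9% of 7832 genes were past 2-fold (15.1% higher, 16.8% lower), 0 of the 7 were, and the Cdkn2a ratio was 1.69 (1.41 to 2.04). With finer clusters the library had 62 tumour-like cells, and the log2 ratio was 0.27 for Cdkn2a, 0.61 for Cdkn2b and -1.01 for Cdkn1a. Against the 42 tumour-like cells of whole KPC-4545, where 32.3% of genes were past 2-fold (18.1% higher, 14.2% lower), Cdkn2b was 4.37-fold (2.89 to 6.99) and Cdkn1a 0.334-fold (0.235 to 0.490), and Cdkn2a was 1.86-fold (1.69 to 2.05). Against the 660 tumour-like cells of enriched KPC-3403, where 22.4% were (14.2% higher, 8.17% lower), Cdkn1a was 0.203-fold (0.182 to 0.225), Cdkn2a 1.62-fold (1.58 to 1.65), Cdkn2b 1.76-fold (1.64 to 1.89) and Smad4 0.594-fold (0.515 to 0.687).

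The collagen-poor clusters were not alike. Cluster 4, led by Pdgfrl, had the most Cdkn2a, at 18.5 (18.2 to 18.8) per 10000 in its 347 enriched KPC-4545 cells and 16.8 (16 to 17.7) in its 33 enriched KPC-3403 cells, and the most Cdkn2b, at 2.28 and 1.73. Cluster 2, led by Krt6a and Crabp1, had 11.5 and 1.23 in 377 enriched KPC-4545 cells, and the shallow cluster 6 (median 668.5 UMIs) had 11.1 and 1.39. Cluster 5, led by Neat1, and cluster 18, led by the division genes Aspm and Mki67, had 3.47 and 2.64 Cdkn2a UMIs per 10000, the lowest of the collagen-poor clusters, with Cdkn2b at 1.51 and 1.28. Both Cdkn2a levels lay below the free RNA of enriched KPC-4545, 6.13, so they are not read as expression. The mitochondrial share of clusters 5 and 18 was 12.1% and 12.4% of UMIs, against 1.31% to 2.31% in the other collagen-poor clusters of enriched KPC-4545, and its part in the result was not tested. Mdm2 was at 1.20 (1.05 to 1.35) and 0.935 (0.735 to 1.17) in clusters 5 and 18, against 0.288, 0.364 and 0.334 in clusters 2, 4 and 6 of enriched KPC-4545. Epcam was at 0 UMIs in clusters 4, 5, 6 and 18 of enriched KPC-4545 and at 3 UMIs in cluster 2.

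Among the tumour-like clusters, cluster 1, led by Bmp2 and Nrn1, had the most Cdkn1a, at 1.32 (1.23 to 1.42) per 10000 in enriched KPC-3403 and 1.28 (0.983 to 1.64) in whole KPC-3403. Clusters 9 and 10 had 0.153 and 0.407 in enriched KPC-3403 and 0.465 and 0.315 in whole KPC-3403. Cluster 9, led by Prap1 and the Reg genes and with the most Epcam, had the least Cdkn2a in each KPC-3403 library, at 4.13 and 4.95 in the enriched and whole libraries, against 6.95 (6.17 to 7.80) in its 33 whole KPC-4545 cells. Cluster 10, led by the trefoil genes Tff1 and Tff2, had 7.44 and 7.93.

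**Figure D3:**
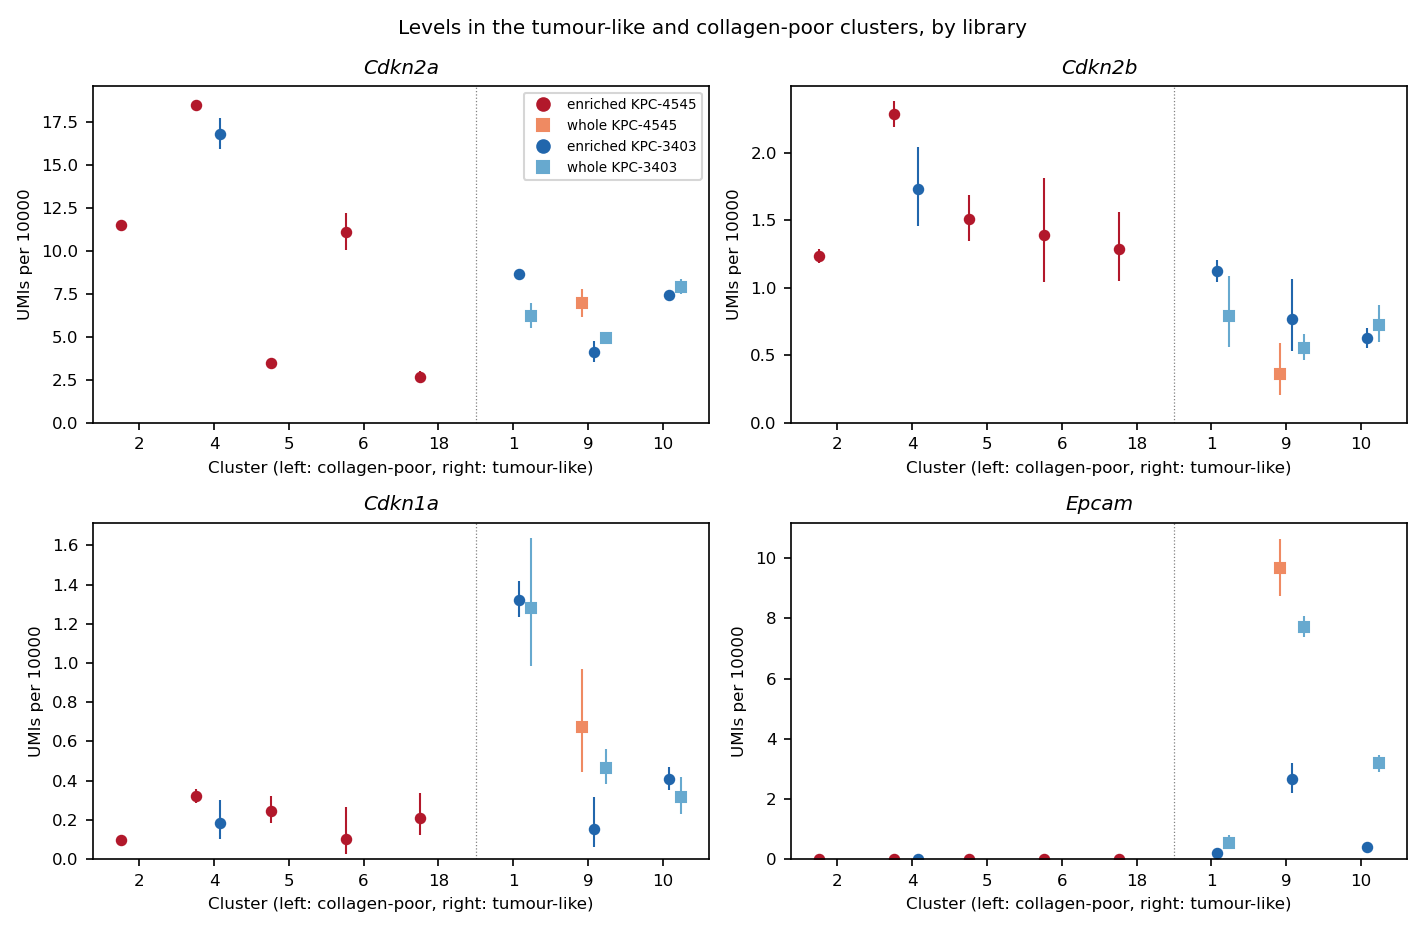
UMIs per 10000 (vertical axis) of Cdkn2a, Cdkn2b, Cdkn1a and the sort target Epcam in each collagen-poor cluster (left of the dotted line) and tumour-like cluster (right), for libraries with at least 20 cells of it; bars are exact Poisson 95% intervals. Cluster 4 was highest for Cdkn2a and Cdkn2b, cluster 1 for Cdkn1a and cluster 9 for Epcam.

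Cycling cells were compared with other cells of the same class, since Cdkn2a, Cdkn2b and Cdkn1a encode brakes on the cell cycle. A cell was called cycling with at least 3 UMIs of a list of 20 proliferation genes after thinning to 2000 UMIs, and other with none. Cdkn1a was lower in cycling cells of the larger group, collagen-poor or tumour-like, of each library, though not in the small collagen-poor group of whole KPC-4545. It was 0.0825 against 0.267 per 10000 in 300 cycling and 486 other collagen-poor cells of enriched KPC-4545 (ratio 0.309, exact 95% interval 0.239 to 0.395), a ratio of 0.251 (0.0466 to 0.888) in 8 and 13 tumour-like cells of whole KPC-4545, 0.191 (0.143 to 0.251) in 78 and 340 of enriched KPC-3403, and 0.333 (0.225 to 0.482) in 60 and 105 of whole KPC-3403. In the few collagen-poor cells of whole KPC-4545 it was found as 2 UMIs in 7 cycling cells and 0 in 11 others. With 2 proliferation UMIs enough to call a cell cycling, that group had 9 UMIs in 9 cycling cells and 0 in 11 others, and the ratio in enriched KPC-3403 tumour-like cells was 0.336 (0.275 to 0.406). Trp53 was higher in cycling cells, with ratios of 1.48 (1.36 to 1.60), 2.26 (0.990 to 5.48), 2.30 (1.99 to 2.66) and 1.59 (1.26 to 2.01) in the same order, of which only the second interval holds 1.

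For Cdkn2a the collagen-poor and tumour-like cells are given apart. In cycling collagen-poor cells it was 10.0 UMIs per 10000, against 14.8 in other collagen-poor cells of enriched KPC-4545 (ratio 0.676, 0.660 to 0.693), and the ratio was 0.611 (0.480 to 0.775) in whole KPC-4545 and 0.601 (0.535 to 0.674) in enriched KPC-3403. In tumour-like cells the ratio was 0.979 (0.752 to 1.27) in whole KPC-4545, 1.05 (0.993 to 1.11) in enriched KPC-3403 and 1.21 (1.11 to 1.33) in whole KPC-3403. These intervals of the collagen-poor and tumour-like cells overlap in KPC-4545 whole cells and not in enriched KPC-3403; the difference itself was not tested. Cdkn2b was lower in cycling cells of enriched KPC-4545 (0.599, 0.557 to 0.643) and enriched KPC-3403 (tumour-like 0.713, 0.597 to 0.849). Myc was lower in cycling collagen-poor cells of enriched KPC-4545 (0.581, 0.530 to 0.636) and enriched KPC-3403 (0.593, 0.373 to 0.915). In those of whole KPC-4545 the ratio was 1.84 (0.652 to 5.60). The Myc intervals held 1 in tumour-like cells of the 3 libraries. Cycling cells were deeper, with a median of 32411 UMIs against 21794 in collagen-poor cells of enriched KPC-4545. Each class also pooled clusters with unlike levels. Cdkn2a was at 18.5 per 10000 in cluster 4 and 2.64 in cluster 18 of enriched KPC-4545, the latter below free RNA. Cdkn1a was at 1.32 in cluster 1 and 0.407 in cluster 10 of enriched KPC-3403. Ratios within clusters were not taken, and the parts of depth, of free RNA and of cluster mix in all the cycling ratios were not tested.

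**Figure D4:**
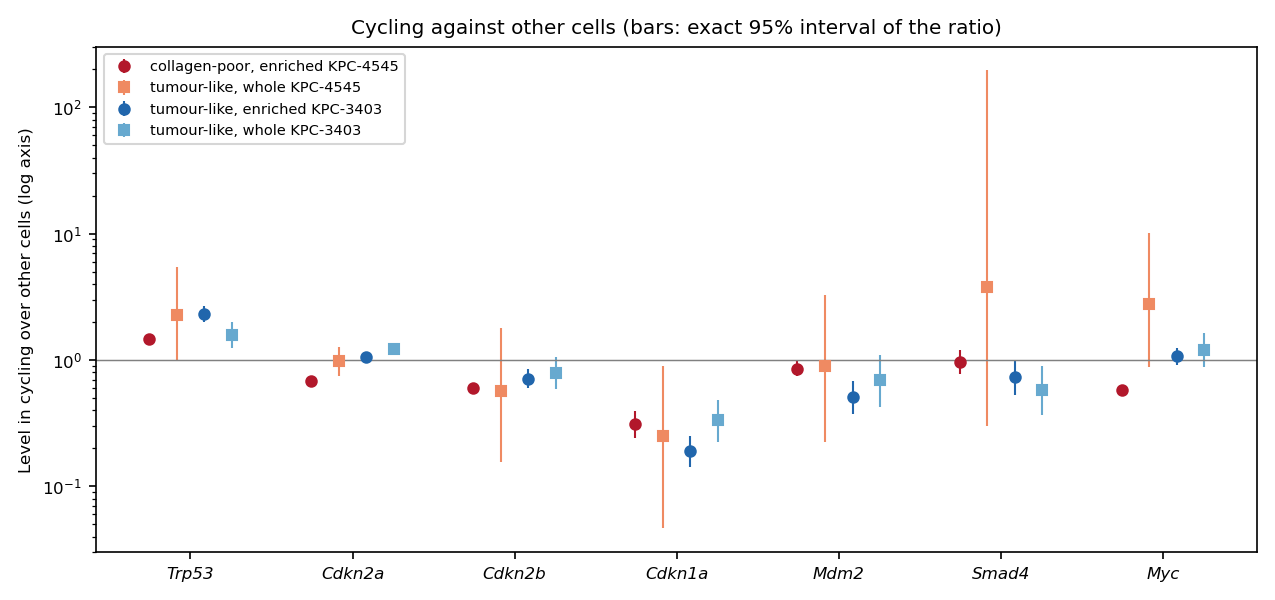
Level in cycling over other cells (vertical axis, logarithmic) for each gene, in collagen-poor cells of enriched KPC-4545 and tumour-like cells of the other libraries; bars are exact 95% intervals of the ratio for counting error. Cdkn1a lay below 1 and Trp53 above 1 in all 4 groups, and the Cdkn2a interval lay below 1 in the collagen-poor cells alone.

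The genes that work with the 7 were followed as lists. Over all genes tested, 17.7% were higher and 20.6% lower in tumour-like cells against fibroblast-like cells, and 19.7% higher and 14.6% lower against immune-like cells. Of 18 p53 targets, all tested against fibroblast-like cells of the 2 KPC-3403 libraries, 10 were lower, 1 higher and 7 did not pass in tumour-like cells. Their median log2 change was -1.05 (0.04 over all genes). The cyclin gene Ccng1 fell by 2.40 ± 0.28 (SE; log2; edgeR adjusted p = 1.65e-06) and the death receptor gene Fas fell by 2.61 ± 0.31 (adjusted p = 2.48e-06). Pmaip1, which encodes the death protein Noxa, was the 1 that rose, by 3.47 ± 0.32 (adjusted p = 1.37e-07). Against immune-like cells 6 of 15 tested p53 targets were lower and 2 higher, with a median of -0.53 (0.13 over all genes): Fas at -3.37 and the stress gene Sesn1 at -2.46 fell. Phlda3, an inhibitor of Akt, was among the 2 that rose (adjusted p = 1.37e-11), and no fold is given because immune-like cells held 1, 1 and 2 UMIs of it. Ccng1 stood at 0.228 and 0.206 per 10000 in tumour-like cells of enriched and whole KPC-3403, against 0.896 and 1.44 in fibroblast-like cells. It was at 0.576 and 0.531, however, in tumour-like cells of whole KPC-4545 and collagen-poor cells of enriched KPC-4545. Between collagen-poor and fibroblast-like cells of enriched KPC-4545, 13 p53 targets had a mean of at least 10 CPM. Of these, 2 were past 2-fold higher and 2 lower, with a median log2 ratio of -0.12 and no test. Over all genes 17.2% were past it higher and 19.6% lower. Of 11 genes around p53 itself, the p53 regulators, none of the 9 tested passed between tumour-like and fibroblast-like cells (Usp7 at 0.08 and Rchy1 at -0.55), and Rchy1 at -1.51 (adjusted p = 0.00197) was the 1 of 8 that passed against immune-like cells.

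On the cyclin side, Ccnd1, the cyclin D1 gene whose kinase partners p16 and p15 inhibit, was also higher in collagen-poor and tumour-like cells than in host cells. It stood at 6.1, 3.99 and 2.75 per 10000 in collagen-poor cells of enriched KPC-4545, whole KPC-4545 and enriched KPC-3403, at 2.45, 2.04 and 2.54 in tumour-like cells of whole KPC-4545 and of enriched and whole KPC-3403, and at 0.111 to 0.199 in fibroblast-like cells. Ccnd1 rose in tumour-like cells by 4.11 ± 0.31 (SE; log2; edgeR adjusted p = 7.00e-09) against fibroblast-like cells and by 4.04 ± 0.53 (adjusted p = 5.87e-13) against immune-like cells. Of 18 cyclin, CDK and Rb genes 3 were higher and 2 lower against fibroblast-like cells, shares below those of all genes (17.7% and 20.6%). Against immune-like cells 2 of 15 were higher and 5 lower. The median log2 changes were 0.46 and -0.17 in these 2 tests, against 0.04 and 0.13 over all genes. The lower ones included the inhibitor genes Cdkn1c (5 UMIs in tumour-like against 674 in fibroblast-like cells of enriched KPC-3403, and 0 against 16 in whole KPC-3403) and Cdkn2c at -1.92 against fibroblast-like cells, and Cdkn2d at -1.62 and the pocket protein gene Rbl2 at -1.67 against immune-like cells. Of the 6 neighbours of Cdkn2a and Cdkn2b on the chromosome, 4 were tested against fibroblast-like cells, and Mtap, the adjacent methylthioadenosine phosphorylase gene, at 1.75 (adjusted p = 4.83e-05) and Mllt3 at 1.43 (adjusted p = 0.00231) rose. Mtap also rose against immune-like cells, by 2.06 (adjusted p = 6.90e-05), as the 1 of 3 tested.

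Of 14 Smad signalling genes 6 were lower and none higher against fibroblast-like cells, with a median log2 change of -0.90. Tgfbr2, the type II TGF-beta receptor gene, fell by 3.13 ± 0.28 (SE; log2; edgeR adjusted p = 7.16e-08), the inhibitor gene Smad7 fell by 1.11 and Bmpr2 fell by 0.98. Against immune-like cells 5 of 13 tested Smad signalling genes were higher and 1 lower: the BMP receptor genes Bmpr1a at 3.65 and Bmpr2 at 2.78 rose, and Tgfbr2 at -2.05 fell. Immune-like cells held 3, 0 and 10 UMIs of Bmpr1a in whole KPC-4545 and then in enriched and whole KPC-3403. They held 2, 1 and 18 of Bmpr2, so the folds of both receptor genes rest on few counts. In the Myc network Mxd1, a Max partner that opposes Myc, was the 1 listed gene of all the lists that passed between the lines, at -2.55 ± 0.24 (adjusted p = 0.0357) in KPC-4545. It stood at 0.263 per 10000 in tumour-like cells of whole KPC-4545 and 0.200 in collagen-poor cells of enriched KPC-4545, against 0.939 and 1.26 in tumour-like cells of enriched and whole KPC-3403, while collagen-poor cells of enriched KPC-3403 had 0.114. The KPC-4545 sums were mostly collagen-poor cells, so line and cell class cannot be told apart in this call. It passed in 8 of 16 alternatives; it was -2.15 (adjusted p = 0.374) with named tumour-like clusters alone and -2.45 (adjusted p = 0.0663) with collagen-poor cells of both lines. Of 16 Myc network genes 7 were higher and 2 lower against fibroblast-like cells, with Mxd1 at 3.18, the ribosome-assembly gene Nop56 at 1.42 and Mxd4 at -2.27. Against immune-like cells 3 of 13 tested Myc network genes were lower and none higher: Mxd1 at -2.67, Mxd4 at -1.60 and Max at -1.36 fell.

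Of 10 Ras pathway genes 3 were higher and none lower against fibroblast-like cells, among them Etv4, a transcription factor gene, at 1.33 and Dusp6, a phosphatase gene of ERK feedback, at 1.21. Against immune-like cells 5 of 10 Ras pathway genes were higher and none lower, among them Phlda1 at 2.70, Dusp6 at 1.67 and Etv4, of which immune-like cells held 0, 0 and 1 UMIs. Of 20 proliferation genes 3 were higher and 1 lower against fibroblast-like cells, again below the shares of all genes. Their median log2 change was nevertheless 1.05, against 0.04 over all genes. On simulated counts edgeR recovered 16% of genes changed by a log2 of 1. That simulation changed 50 of 12866 genes by that size, while 38.2% of all genes passed against fibroblast-like cells. It therefore does not give the power of this test, and why few of the list passed was not tested. The 3 named by rule were Rrm2 at 1.06, Pcna at 1.05 and Mcm2 at 1.04. Against immune-like cells 11 of the 20 were higher and none lower, with Ube2c at 2.50, Cenpf at 2.29 and Hmmr at 1.87. Between the lines none of the 10 Ras pathway, 20 proliferation, 18 cyclin or 17 tested p53 target genes passed, with Ccnd1 at 0.80 (edgeR adjusted p = 0.321) and the p53 target Btg2 at -1.12 (adjusted p = 0.132). Among the list genes named above as passing against host cells, Pcna passed in 7 of 10 alternatives, Cdkn2d in 8 of 13 and Rbl2 in 10 of 13, and the others in at least 8 of 10 or 11 of 12 or 13.

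For each of the 7 genes, the 3 genes with the most similar pattern were taken from 8502 genes by Pearson r of log2(CPM + 1) over the 25 sums. The most similar to Cdkn2a were 3110039M20Rik (0.911), Wincr1 (0.910) and Gldc (0.910), and to Cdkn2b Porcn (0.953), Nr2f1 (0.932) and Ltbp1 (0.919). For Trp53 they were Ssb (0.917), Hsp90ab1 (0.901) and Eif3d (0.894), and for Myc Hmgn1 (0.931), Aldh7a1 (0.914) and Rbms2 (0.884). For Cdkn1a they were Card19 (0.902), Prdx5 (0.881) and Cers6 (0.881), for Smad4 Usp12 (0.922), Map4 (0.919) and Stat3 (0.914), and for Mdm2 Tmem38b (0.785), Trim30d (0.780) and Sgpl1 (0.774). Mdm2 had the lowest top r of the 7 genes.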

How the data were processed

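The 4 libraries were made with 10x 5′ single-cell chemistry, 1 per line and preparation. The authors deposited raw UMI counts per gene and barcode for all barcodes; the submitters' processing notes name Cell Ranger 6.1.1 and mm10, while the file headers read Cell Ranger 4. Barcodes needed 500 UMIs, 250 genes and a mitochondrial share of no more than 20%, and were kept when they differed from free RNA (barcodes with up to 100 UMIs; Monte Carlo test, false discovery rate 0.01), and called doublets were removed. A barcode with at least 10 times as many UMIs in another library was treated as a copy and left out, a rule chosen after seeing the data. Cells were clustered (scanpy 1.11.5, Leiden resolution 1, 2000 variable genes, 30 components), without the members and list genes, and named from markers.

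Counts were summed per class and library with at least 20 cells and tested with edgeR 4.0.16 (TMM, filterByExpr, robust quasi-likelihood, Benjamini-Hochberg threshold 0.05) across all genes; DESeq2 1.42.0 was an alternative. On simulated counts with known changes edgeR recovered 16% of genes changed by a log2 of 1 and 86% to 92% of those changed by 2 in the 3 tests. Each size was given to 50 genes, far fewer than passed against host cells, so these shares are not the power of those tests. The line test was to use named tumour-like cells; because enriched KPC-4545 had 6, the collagen-poor KPC-4545 cells were counted with them, which had been listed as another setting. Single libraries were compared by ratios with exact 95% intervals, which cover counting error only, and 2-fold calls added 0.5 UMIs. All 7 genes were named in each comparison; of each list, up to 3 passing genes with the largest change and a mean of at least 10 CPM, otherwise the 2 most abundant; others were named for their place in a list. The members and lists were chosen with earlier results of these data known.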

Additional observations from a re-analysis of the deposited data

Results flagged for a closer look

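Smad4 moved in opposite directions between tumour-like and immune-like cells of the whole libraries of the 2 lines. The log2 ratio of tumour-like over immune-like cells was -0.63 in whole KPC-4545 (9 and 41 UMIs) and 0.11 in whole KPC-3403 (130 and 75 UMIs), a difference of -0.745. The difference was not tested, each line had 1 such library, and both intervals of the ratio hold 1 (0.276 to 1.35 in KPC-4545 and 0.808 to 1.46 in KPC-3403).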

How the results depend on the processing

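Of 273 values of tested differences under alternatives, 235 kept direction and side of the threshold, 10 lost a call, 7 gained one and 21 changed sign, all 21 uncalled. The number of genes called between the lines, 69, was 1655 without the filter on low counts, 494 with DESeq2, 0 without the preparation term, 2 at 10% mitochondrial UMIs, 15 at Leiden resolution 2, 109 with copies kept, 2 with named tumour-like clusters alone, 7 with collagen-poor cells of both lines, and 0 to 919 with 1 library left out (919 without whole KPC-4545 and 0 without each of the other 3). With 3 libraries, also with named clusters alone, the preparation term had to be dropped as well, so the part of the library or clusters cannot be told apart from that of the term. In that comparison Mdm2 (0.00) was -0.015 without the filter, -0.0052 without the preparation term, -0.10 at 10% mitochondrial UMIs, -0.32 with named clusters alone and -0.33 with copies kept as well, and -0.28 to 0.32 with 1 library left out; in the last 2 cluster settings Cdkn2a was -0.11 and -0.013 and Cdkn2b -1.18 and -0.0090. With 1 library left out, Cdkn2b was -0.54 to 0.82, Trp53 -0.66 to 0.12 and Myc -0.64 to 0.35. Against fibroblast-like cells 4891 genes became 2729 with DESeq2, 2118 at resolution 2 and 2277 with collagen-poor KPC-4545 cells counted; Smad4 was -0.47 at resolution 2, -0.018 with list genes kept for clustering, -0.11 with copies kept and -0.20 with collagen-poor cells counted, where Myc was 0.090. Against immune-like cells 3474 genes became 5402 without the filter and 1268 to 4579 with 1 library left out (1268 without whole KPC-3403), where Smad4 was -0.25 to 0.14. Genes past 2-fold between collagen-poor and tumour-like cells of enriched KPC-4545 numbered 716 at resolution 2, against 2502. The causes were not tested. Leaving out a library was not run against fibroblast-like cells, where no residual degrees of freedom would remain. The settings on copies and on named clusters were chosen after seeing the data.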
